A study of Mus musculus with 18 samples.

Results

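The genes described here are Hmox1 and 8 further genes of the oxidative stress pathway run by the transcription factor NRF2: Nfe2l2, Keap1, Slc7a11, Gclc, Gclm, Txnrd1, Srxn1 and Nqo1. They were chosen by symbol from the deposited count table, which holds 13973 genes, and 9 of the 9 had a row and passed the low-count filter. The list was drawn up around Hmox1 with results of these data already in view. Hmox1 is therefore described by its values and fold changes with no test, and the other 8 genes carry adjusted p-values taken over all genes.

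The study measured RNA on polysomes, mRNAs that carry several ribosomes, in brain slices of male C57BL/6N mice at postnatal day 28 to 35. The mice were wild type (WT) or Fmr1 KO, which lack a working gene for FMRP, an RNA-binding protein found on polysomes. Slices 400 µm thick were held for 30 min at 30 °C either in DMSO vehicle or in 20 µM HHT (homoharringtonine), and all groups went through this incubation. HHT stops a ribosome from leaving the start codon while ribosomes further along finish, so that polysomes run off. For each genotype and treatment 3 RNAs were sequenced: the cleared lysate (input), medium polysomes and heavy polysomes from a sucrose gradient, with the pools set by where FMRP appeared on immunoblots. The 18 libraries form 12 groups: those given HHT (6 groups) have 2 replicates, and those given vehicle (6 groups) have 1. Each replicate pooled 10 slices from 2 to 3 mice, so a library is a mixture of animals. The labels call the tissue hippocampal in one field and hippocampal-cortical in another, and the slices hold neurons, glia and vessel cells together. In such bulk RNA, fewer cells of a type and less of an mRNA per cell cannot be told apart.

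NRF2, the product of Nfe2l2, switches on genes that make glutathione, reduce thioredoxin and detoxify reactive compounds by binding antioxidant response elements with a small MAF partner. In unstressed cells KEAP1 holds NRF2 and presents it to a CUL3 ubiquitin ligase for destruction, and oxidants or electrophiles modify cysteines of KEAP1 so that newly made NRF2 accumulates. Pathway activity in brain is generally higher in astrocytes than in neurons, and Hmox1, encoding the inducible heme oxygenase that cuts heme into biliverdin, iron and carbon monoxide, is in addition held down by the repressor BACH1. NRF2 is a short-lived protein, so a cell must keep translating its mRNA to hold any.

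Library totals ran from 6226237 to 13834652 estimated counts. Levels are given in CPM, counts scaled to the library size and corrected by the TMM method. Each CPM is a share of the RNA sequenced from its own pool, not an amount of RNA. How much RNA was left on polysomes after HHT is not measured by these values. A rise or fall below is therefore a change in share. Fmr1 mRNA, the gene altered in the KO, lay between 13.9 and 32.2 CPM in the 9 WT libraries. It lay between 4.62 and 8.53 CPM in the 9 KO libraries, without overlap. Neuronal, astrocyte and oligodendrocyte markers were present in all libraries, with summed input levels of 9436 CPM or more for 10 neuronal genes and 1941 CPM or more for 12 astrocyte genes. The HHT libraries numbered 2 stood apart in how the second deposited table was scaled: its lowest value was 0.7722 to 0.9041 in them and 1.004 to 1.043 in all other libraries. All vehicle libraries were thus on the side of HHT replicate 1, and whether these sets of libraries are batches was not tested. The HHT changes of the called genes are therefore also given for each HHT replicate number alone.

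HHT acts at the start codon, so the start sites of the 9 mRNAs are shown, 9 bases of leader and the first codons, with the start codon in capitals (GENCODE M21 transcripts, mouse build GRCm38, which is mm10).
Hmox1: agtccggtgATGgagcgtccacagcccgac
Nfe2l2: gccctcagcATGatggacttggagttgcca
Keap1: aggaaccccATGcagcccgaacccaagctt
Slc7a11: gacactgccATGgtcagaaagccagttgtg
Gclc: gacgcggccATGgggctgctgtcccaaggc
Gclm: gcagctgccATGggcaccgacagccgcgcg
Txnrd1: ctgccaacaATGaatggctccaaagatccc
Srxn1: ggccacgcgATGgtacagcccggcctggta
Nqo1: tctggagccATGgcggcgagaagagccctg

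A purine 3 bases before the start codon, part of the favoured start context, was present in 8 of the 9, all but Keap1, against 84.7% of the 13040 genes matched to an annotated coding sequence. An ATG earlier in the leader was found in 3 of the 9, Gclc and Slc7a11 with 1 each and Keap1 with 2, against 50.7% of matched genes. Coding regions ran from 155 codons in Srxn1 through 274 in both Nqo1 and Gclm, 289 in Hmox1, 499 in Txnrd1, 502 in Slc7a11, 597 in Nfe2l2 and 624 in Keap1 to 637 in Gclc. The median of all matched genes was 474 codons.

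In mm10 the genes lie at chr8:75093621-75100589 (Hmox1, plus strand), chr2:75675513-75704641 (Nfe2l2, minus), chr9:21229730-21239361 (Keap1, minus), chr3:49892526-50443614 (Slc7a11, minus), chr9:77754535-77794485 (Gclc, plus), chr3:122245557-122270732 (Gclm, plus), chr10:82833951-82897712 (Txnrd1, plus), chr2:152105516-152111376 (Srxn1, plus) and chr8:107388225-107403206 (Nqo1, minus). Gclm overlaps the annotated genes Gm17494 on the opposite strand and Gm6061 on its own strand, and Keap1 overlaps Gm16754 on the opposite strand. None of these neighbours has a row in the count table, and the sources used here do not say whether counting used strand. The Gclm and Keap1 counts could therefore include reads of these genes.

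The core letters of an antioxidant response element, TGACNNNGC or GCNNNGTCA on the other strand, were searched in RefSeq promoter windows of 300 bases (GRCm38.p6, 250 before the start of transcription and 50 after it). The search covered 32851 windows and found the letters in 12.4% of them. Entries existed for 7 of the 9 genes, not for Hmox1 and Gclc, and their 9 entries held 4 with a match, 1 each for Nfe2l2, Srxn1 and Gclm and 1 of the 3 for Txnrd1. Each match is printed on the gene's own strand with the motif in capitals, to show the element through which NRF2 is known to act; a match is a description and not a measured site.
Nfe2l2, chr2:75704884-75704913: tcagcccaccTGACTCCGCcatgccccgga
Srxn1, chr2:152105542-152105571: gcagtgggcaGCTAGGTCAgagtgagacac
Gclm, chr3:122245413-122245442: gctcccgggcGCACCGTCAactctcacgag
Txnrd1, chr10:82859104-82859133: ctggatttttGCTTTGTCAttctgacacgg

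Compared per length, in the authors' rescaled TPM (a level corrected for transcript length and library size, then scaled further), Srxn1 was the most abundant of the 9 in vehicle input, with a mean level of 129 over the WT and KO libraries (range 125 to 133). Gclc at 66.3 (61.9 to 70.7), Keap1 at 63.6 (61 to 66.3) and Txnrd1 at 60.7 (56.2 to 65.2) followed, and their ranges overlapped one another. Gclm stood at 36.2 (32.6 to 39.8) and Hmox1 at 34.3 (33.8 to 34.9), also with overlapping ranges. Nfe2l2 was lower at 16.3 (15.7 to 16.8), and Nqo1 at 5.79 (4.13 to 7.44) and Slc7a11 at 4.24 (3.9 to 4.58) came last with overlapping ranges. Each mean rests on 2 libraries of different genotype, so the ranges are the only spread available.

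Hmox1 mRNA was abundant on heavy polysomes in vehicle and scarce there after HHT. In heavy polysomes it stood at 46.7 CPM in the WT vehicle library and 40.3 CPM in the KO vehicle library, against 9.74 and 10.6 CPM in the WT HHT libraries and 11.6 and 11.3 CPM in the KO HHT libraries. The 4 HHT values lay close together, and none came within reach of either vehicle value. The fitted change, HHT minus vehicle averaged over the genotypes, was -2.00 ± 0.16 on the log2 scale (SE), a 4.01-fold lower level. The list was built around this heavy level, so the SE is given as a description and not as a test. It was -2.21 in WT alone and -1.82 in KO alone, and -2.01 and -1.96 with HHT replicate 1 or replicate 2 alone.

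In the other fractions the differences were smaller. In medium polysomes Hmox1 was at 18.5 CPM in WT vehicle and 18.1 CPM in KO vehicle, against 16.8 and 19.9 CPM in WT HHT and 16.5 and 16.1 CPM in KO HHT, a change of -0.08 ± 0.17 (log2, SE) with overlapping groups. In input it was at 17.1 CPM in WT vehicle and 18 CPM in KO vehicle, and at 23 and 27.4 CPM in WT HHT and 18.5 and 26.1 CPM in KO HHT, a change of 0.43 ± 0.16. All 4 HHT inputs were above both vehicle inputs, KO HHT replicate 1 by the least. The input change was 0.23 with HHT replicate 1 alone and 0.60 with replicate 2 alone. Only 0.143% of all genes had a heavy change below that of Hmox1. This placed the gene when the list was made and is no independent support.

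**Figure D1:**
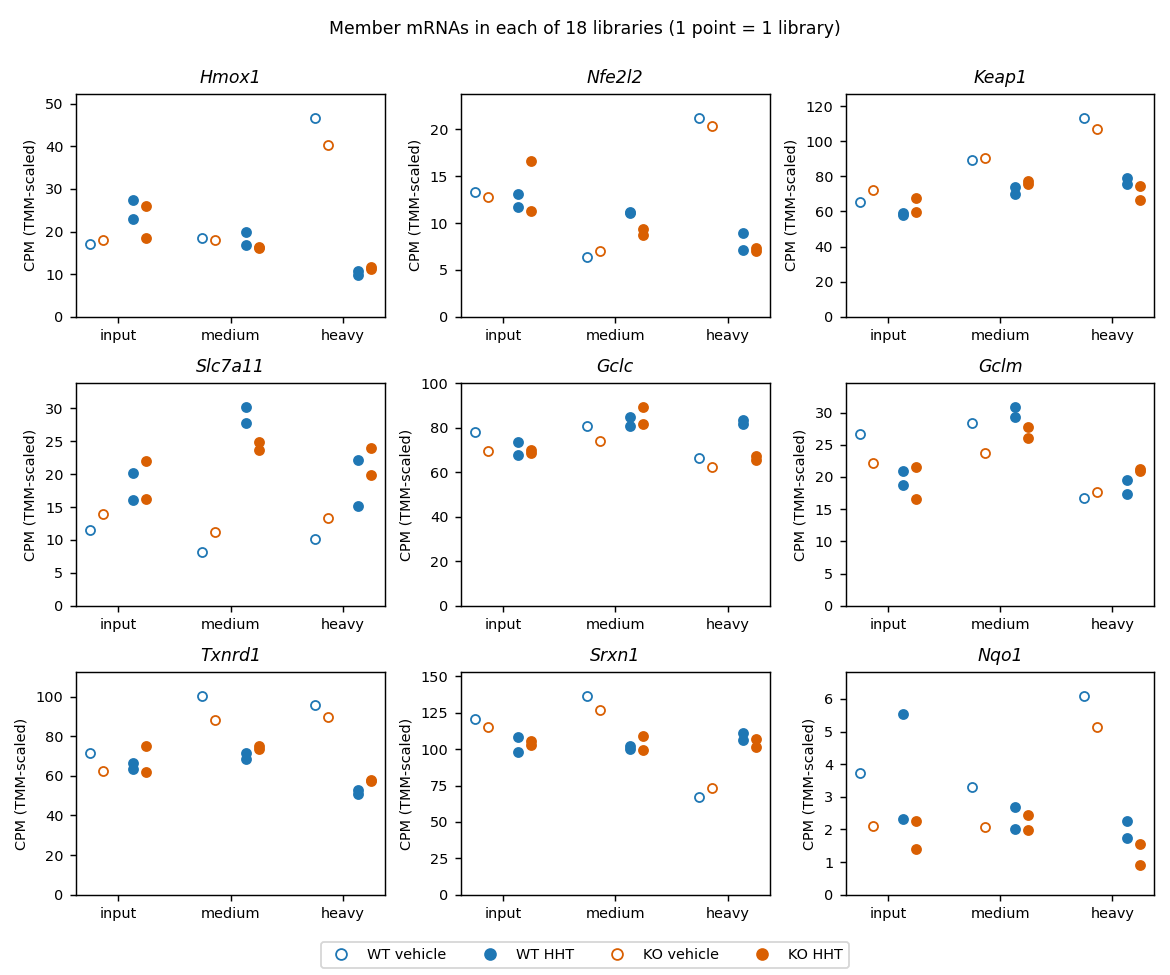
Level of each of the 9 mRNAs (y axis, TMM-scaled CPM from 0) in input, medium and heavy polysomes (x axis); every point is 1 library, open for vehicle and filled for HHT, blue for WT and orange for KO. Hmox1 in heavy polysomes is at 40.3 and 46.7 CPM in vehicle and at 9.74 to 11.6 CPM in HHT, while its medium values overlap.

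Nfe2l2, the mRNA for NRF2 itself, fell on heavy polysomes and rose on medium ones. In heavy polysomes it stood at 21.2 CPM in WT vehicle and 20.4 CPM in KO vehicle, and at 8.99 and 7.16 CPM in WT HHT and 7.06 and 7.30 CPM in KO HHT. All HHT libraries were below both vehicle libraries, and Nfe2l2 fell by 1.45 ± 0.18 on the log2 scale (SE, edgeR quasi-likelihood test, adjusted p = 2.79e-05), a 2.74-fold lower level. In medium polysomes it was at 6.34 CPM in WT vehicle and 6.99 CPM in KO vehicle, and at 11.2 and 11 CPM in WT HHT and 9.36 and 8.71 CPM in KO HHT.

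All HHT medium libraries were above both vehicle ones and Nfe2l2 rose there by 0.59 ± 0.20 (adjusted p = 0.0299), 1.50-fold. That medium call was lost without WT HHT replicate 1 or 2 or KO HHT replicate 1, with adjusted p of 0.0682, 0.0612 and 0.0609, with total counts (0.0691) and with DESeq2 (0.0807). In input Nfe2l2 was at 13.4 and 12.8 CPM in WT and KO vehicle and at 11.7, 13.1, 11.2 and 16.7 CPM in HHT, overlapping groups with a change of 0.01 ± 0.18 (adjusted p = 0.993).

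Keap1, the adaptor that marks NRF2 for destruction, fell in heavy polysomes by less. It was at 113 CPM in WT vehicle and 107 CPM in KO vehicle, against 75.7 and 79.0 CPM in WT HHT and 66.6 and 74.5 CPM in KO HHT, with no overlap. Keap1 fell by 0.58 ± 0.11 on the log2 scale (adjusted p = 0.000526), a 1.49-fold lower level. In medium polysomes, at 89.5 and 90.6 CPM in vehicle and 69.9 to 77.4 CPM in HHT, Keap1 changed by -0.28 ± 0.11 (adjusted p = 0.0486). That call was lost when any 1 of the 4 HHT replicates was left out (adjusted p 0.139, 0.0866, 0.0948 and 0.0911).

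Slc7a11, the cystine carrier of system xc- that supplies cysteine for glutathione, went the other way. Its medium polysome levels were 8.18 CPM in WT vehicle and 11.3 CPM in KO vehicle, and 30.2 and 27.7 CPM in WT HHT and 23.6 and 24.9 CPM in KO HHT. Every HHT library was above both vehicle libraries, and Slc7a11 rose by 1.46 ± 0.21 (adjusted p = 0.000178), 2.76-fold, a change higher than in 96.8% of all genes. In heavy polysomes it was at 10.2 CPM in WT vehicle and 13.3 CPM in KO vehicle, and at 22.2 and 15.1 CPM in WT HHT and 24 and 19.8 CPM in KO HHT.

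The heavy groups did not overlap either, the lowest HHT value being WT replicate 2, and Slc7a11 rose by 0.79 ± 0.21 (adjusted p = 0.00643), 1.73-fold. Within WT alone the heavy change was 0.85 (adjusted p = 0.059) and within KO alone 0.71 (adjusted p = 0.0576). It was 0.97 with HHT replicate 1 alone and 0.56 with replicate 2 alone. In input all 4 HHT levels, 20.1, 16.1, 22 and 16.3 CPM, were above the vehicle levels of 11.6 and 13.9 CPM, with a change of 0.56 ± 0.19 that missed the threshold (adjusted p = 0.0854).

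Gclc and Gclm encode the catalytic and the modifier subunit of glutamate-cysteine ligase, which makes the first and rate-limiting product of glutathione synthesis. In heavy polysomes Gclc was at 66.6 CPM in WT vehicle and 62.2 CPM in KO vehicle, and at 81.9 and 83.4 CPM in WT HHT and 67.3 and 65.4 CPM in KO HHT, a change of 0.20 ± 0.11 (adjusted p = 0.14). Gclm was at 16.8 CPM in WT vehicle and 17.7 CPM in KO vehicle, and at 19.5 and 17.4 CPM in WT HHT and 20.9 and 21.3 CPM in KO HHT, a change of 0.19 ± 0.15 (adjusted p = 0.33). For both subunits the heavy groups overlapped.

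In medium polysomes the changes were 0.12 ± 0.11 for Gclc (adjusted p = 0.367) and 0.14 ± 0.14 for Gclm (adjusted p = 0.466). In input they were -0.07 ± 0.10 (adjusted p = 0.802) and -0.32 ± 0.14 (adjusted p = 0.192). Neither subunit was called with HHT in any fraction by this test; limma on the authors' rescaled TPM called both in heavy polysomes, at 0.43 for Gclc (adjusted p = 0.00653) and 0.41 for Gclm (adjusted p = 0.0366), on a scale whose all-gene median was 0.24.

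Txnrd1 and Srxn1 serve the thioredoxin and peroxiredoxin branch and moved in opposite directions on heavy polysomes. Txnrd1, the cytosolic thioredoxin reductase, was at 96.0 CPM in WT vehicle and 89.5 CPM in KO vehicle, and at 50.6 and 52.7 CPM in WT HHT and 57.4 and 58.1 CPM in KO HHT, so the groups did not overlap. It fell by 0.76 ± 0.11 on the log2 scale (adjusted p = 7.72e-05), a 1.70-fold lower level. Srxn1, sulfiredoxin, which repairs over-oxidised peroxiredoxins, was at 67.0 CPM in WT vehicle and 73.4 CPM in KO vehicle, and at 111 and 106 CPM in WT HHT and 102 and 107 CPM in KO HHT.

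All HHT heavy libraries were above both vehicle ones, and Srxn1 rose by 0.60 ± 0.11 (adjusted p = 0.000404), 1.52-fold. On medium polysomes both mRNAs were lower with HHT. Txnrd1 went from 100 and 88.1 CPM in vehicle to between 68.4 and 75.2 CPM, a change of -0.38 ± 0.11 (adjusted p = 0.0118). Srxn1 went from 137 and 127 CPM in vehicle to between 99.7 and 109 CPM, a change of -0.36 ± 0.10 (adjusted p = 0.0118). Srxn1 lost its call without KO HHT replicate 2 (-0.32). With limma on the rescaled TPM both medium calls were lost, at -0.27 for Txnrd1 (adjusted p = 0.0569) and -0.25 for Srxn1 (adjusted p = 0.0986). The all-gene median on that scale was 0.11. In WT alone and KO alone the medium changes were -0.54 and -0.25 for Txnrd1 and -0.45 and -0.28 for Srxn1.

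Nqo1, a quinone reductase long used as a readout of NRF2 activity, was the least counted of the 9, with 8.37 to 37.9 estimated counts in a library, so its values carry wide errors. In heavy polysomes it was at 6.09 CPM in WT vehicle and 5.13 CPM in KO vehicle, and at 2.25 and 1.74 CPM in WT HHT and 0.926 and 1.54 CPM in KO HHT. The groups did not overlap and Nqo1 fell by 1.83 ± 0.36 on the log2 scale (adjusted p = 0.000768), a 3.55-fold lower level. In medium polysomes and input the groups overlapped, with changes of -0.20 ± 0.37 (adjusted p = 0.699) and -0.14 ± 0.33 (adjusted p = 0.896).

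**Figure D2:**
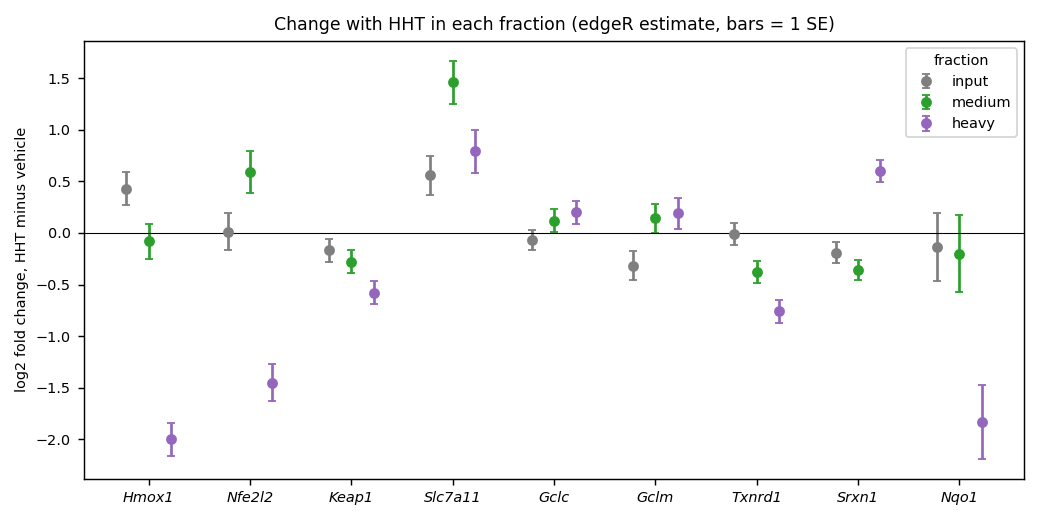
Log2 fold change with HHT (y axis, HHT minus vehicle, edgeR estimate, bars 1 SE) of the 9 mRNAs (x axis) in input, medium and heavy polysomes, each from 4 HHT and 2 vehicle libraries. Heavy values run from -2.00 for Hmox1 to 0.79 for Slc7a11, and the highest value of all is Slc7a11 in medium polysomes at 1.46.

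Counted over the 8 tested genes, heavy polysomes held 4 that fell with HHT (Nfe2l2, Nqo1, Txnrd1 and Keap1) and 2 that rose (Srxn1 and Slc7a11), where 24.7% of all genes were called lower and 27.1% higher. Medium polysomes held 3 that fell (Txnrd1, Srxn1 and Keap1) and 2 that rose (Slc7a11 and Nfe2l2), against 21.5% and 25.4% of all genes. In input 0 of the 8 were called, against 0.215% of all genes lower and 12.2% higher. In that input comparison 2 of the 8 and 3011 of all genes had an unadjusted p under 0.05, and DESeq2 also called 0 of the 8. The median change over the 8 genes, without Hmox1, was -0.19 in heavy polysomes, -0.04 in medium polysomes and -0.11 in input, beside all-gene medians of 0.06, 0.03 and 0.00. With Hmox1, around whose heavy level the list was built, the heavy median was -0.58. The 3 comparisons use different libraries of the same 6 lysates, so they are not separate evidence. The main fit treats the 3 fractions of a lysate as independent. Each vehicle group is 1 library, whose spread is assumed to equal that of the HHT groups. The p-values measure only the spread between these pooled replicates.

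The same 6 genes were called on heavy polysomes when each HHT replicate was left out in turn, with RLE factors or total counts in edgeR and with DESeq2, and limma on the rescaled TPM added Gclc and Gclm. WT alone and KO alone each gave 5 of the 8. With HHT replicate 1 alone and replicate 2 alone, the heavy changes were -1.36 and -1.50 for Nfe2l2, -0.63 and -0.52 for Keap1, -0.78 and -0.74 for Txnrd1, 0.60 and 0.60 for Srxn1, and -1.80 and -1.65 for Nqo1. The medium count of 5 was less stable: leaving out any 1 HHT replicate gave 3, WT alone gave 3 and KO alone gave 1. By replicate number the medium changes of the 5 called genes were close, at 0.60 and 0.54 for Nfe2l2, -0.31 and -0.25 for Keap1, 1.46 and 1.43 for Slc7a11, -0.41 and -0.36 for Txnrd1 and -0.32 and -0.40 for Srxn1. In input they were further apart, at 0.72 and 0.35 for Slc7a11 and -0.19 and 0.18 for Nfe2l2.

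Next each polysome pool was set against the input of its own lysate. In vehicle, Hmox1 was at 2.73 times its input level on heavy polysomes in WT and 2.24 times in KO. In HHT the same ratio was 0.424 and 0.388 in WT and 0.626 and 0.433 in KO. All vehicle ratios were thus above 1 and all HHT ratios below it. Hmox1 was 1.30 ± 0.19 higher on heavy polysomes than in input in vehicle (log2, SE, 2.47-fold) and stood at -1.13 ± 0.14 against input in HHT. The difference between these 2 contrasts, the HHT shift, was -2.43 ± 0.23, a 5.40-fold drop in the ratio.

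In vehicle, 4 of the 8 tested genes were higher on heavy polysomes than in input: Nfe2l2 (0.67 ± 0.21, adjusted p = 0.0164), Keap1 (0.68 ± 0.13, adjusted p = 0.00079), Txnrd1 (0.47 ± 0.13, adjusted p = 0.0096) and Nqo1 (0.99 ± 0.37, adjusted p = 0.0431). Another 2 were lower, Srxn1 (-0.75 ± 0.12, adjusted p = 0.000316) and Gclm (-0.49 ± 0.17, adjusted p = 0.031). Of all genes 24.8% were called higher and 21.7% lower. This contrast depended on scaling: with total counts in place of TMM the all-gene median moved from -0.02 to -0.41, and 0 of the 8 were called higher and 3 lower. The Nqo1 call was lost without KO HHT replicate 1 or 2 (adjusted p 0.0652 and 0.0567), and the Gclm call without WT HHT replicate 1 or 2 (0.0517 and 0.0515). DESeq2 called neither Nqo1 (adjusted p = 0.0848) nor Gclm (0.148), and Gclm was also lost with RLE factors (0.0715). With limma on the rescaled TPM, Txnrd1 (adjusted p = 0.198), Nqo1 (0.122) and Nfe2l2 (0.071) were lost and Gclc was called lower (-0.46, 0.012). Slc7a11 (-0.12 ± 0.24, adjusted p = 0.715) and Gclc (-0.20 ± 0.12, adjusted p = 0.216) were not called with TMM.

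In HHT, Nfe2l2 was lower on heavy polysomes than in input (-0.79 ± 0.15, adjusted p = 0.000686), as was Txnrd1 (-0.28 ± 0.09, adjusted p = 0.0176), and Keap1 was higher (0.27 ± 0.09, adjusted p = 0.0187). Of all genes 27.6% were called higher and 30.4% lower. Only Nfe2l2 was called of the 8 when WT HHT replicate 2 or KO HHT replicate 2 was left out, and with total counts the Keap1 difference was 0.03. The heavy to input ratios of Nfe2l2 were 1.59 in both vehicle lysates and 0.770, 0.546, 0.628 and 0.438 in the HHT lysates. Those of Srxn1 were 0.554 and 0.636 in vehicle and 0.98 to 1.14 in HHT, so Srxn1 was below its input level on heavy polysomes in both vehicle lysates and close to it in the HHT lysates.

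**Figure D3:**
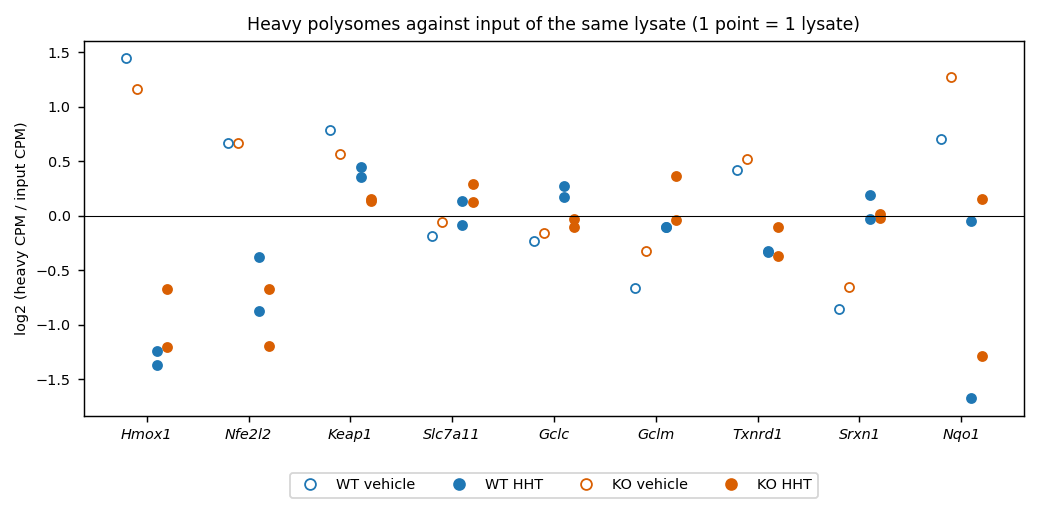
Log2 ratio of the heavy polysome CPM to the input CPM of the same lysate (y axis) for the 9 mRNAs (x axis); every point is 1 of 6 lysates, open for vehicle and filled for HHT, blue for WT and orange for KO. Hmox1 and Nfe2l2 lie above 0 in both vehicle lysates and below 0 in all 4 HHT lysates, and Srxn1 lies below 0 in vehicle and near 0 in HHT.

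The HHT shift of the heavy to input ratio tests whether the polysome pool changed apart from the input. It was called for 4 of the 8: Nfe2l2 (-1.46 ± 0.26, adjusted p = 0.00124), Nqo1 (-1.69 ± 0.49, adjusted p = 0.0199) and Txnrd1 (-0.75 ± 0.16, adjusted p = 0.00374) fell, and Srxn1 (0.79 ± 0.15, adjusted p = 0.00191) rose. Of all genes 16.3% were called lower and 12.6% higher. The Nqo1 call was lost without WT HHT replicate 2 (-1.28, adjusted p = 0.0521) and without KO HHT replicate 1 (-1.33, adjusted p = 0.112). Keap1 was at -0.41 ± 0.16 (adjusted p = 0.067), and the fit with each lysate as a block gave -0.41 with adjusted p = 0.0417. Gclm (0.51 ± 0.21, adjusted p = 0.083), Gclc (0.27 ± 0.15, adjusted p = 0.194) and Slc7a11 (0.23 ± 0.29, adjusted p = 0.597) were not called. Some calls of this shift depended on scaling: Keap1 was called with RLE factors (-0.47, adjusted p = 0.0372) and Gclm with total counts (0.66, adjusted p = 0.0306). With limma on the rescaled TPM, Gclm (0.84, adjusted p = 0.0122) and Gclc (0.61, adjusted p = 0.0125) were called and Txnrd1 was not (-0.40, adjusted p = 0.0569). For Slc7a11 the heavy change of 0.79 thus stood beside an input change of 0.56.

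Against input, medium polysomes in HHT held more Gclm (0.55 ± 0.11, adjusted p = 0.00331), Gclc (0.27 ± 0.09, adjusted p = 0.0319), Slc7a11 (0.50 ± 0.15, adjusted p = 0.0209) and Keap1 (0.28 ± 0.09, adjusted p = 0.0313), 4 of the 8, where 13.4% of all genes were called higher and 17% lower. All 4 calls were lost without WT HHT replicate 2 or without KO HHT replicate 2. In vehicle, medium polysomes held more Txnrd1 (0.49 ± 0.13, adjusted p = 0.0205) and Keap1 (0.39 ± 0.13, adjusted p = 0.0473) and less Nfe2l2 (-0.97 ± 0.23, adjusted p = 0.0122), beside 10.2% of all genes higher and 9.5% lower.

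Leaving out any 1 HHT replicate ended the Keap1 call in that vehicle contrast. The HHT shift of the medium to input ratio was called for Slc7a11 alone of the 8 (0.90 ± 0.28, adjusted p = 0.0422), where 7.09% of all genes were higher and 10.2% lower. It missed the threshold without WT HHT replicate 2 (0.86, adjusted p = 0.075) and without KO HHT replicate 2 (0.78, adjusted p = 0.145). Hmox1 stood at -0.51 ± 0.23 in that shift. Contrasts of both polysome pools against input share the input libraries, and the shifts share all libraries with the contrasts above, so they are not separate evidence.

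The genotypes were compared under HHT, where each has 2 replicates. Of the 8 tested genes 0 were called in input, medium or heavy polysomes, and 0% of all genes were called in any of the 3. At an unadjusted p under 0.05 there were 1, 0 and 1 of the 8 genes in input, medium and heavy, and 679, 387 and 412 of all genes, and DESeq2 also called 0 of the 8. Hmox1 differed by -0.17 ± 0.18 in input, -0.17 ± 0.19 in medium and 0.16 ± 0.21 in heavy polysomes (log2, KO minus WT), with 95% intervals of -0.56 to 0.23, -0.58 to 0.23 and -0.29 to 0.62. The 2 differences that passed before adjustment were Nqo1 in input (-0.98 ± 0.38, adjusted p = 0.89) and Gclc in heavy polysomes (-0.32 ± 0.12, adjusted p = 1).

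For Gclc the KO HHT heavy values of 67.3 and 65.4 CPM lay below the WT values of 81.9 and 83.4 CPM, while in medium polysomes and input the KO and WT HHT values overlapped. For Nqo1 the input values were 2.26 and 1.39 CPM in KO and 2.32 and 5.54 CPM in WT. In vehicle, with 1 library a genotype and no test, Hmox1 was at 40.3 CPM in KO and 46.7 CPM in WT on heavy polysomes, Nfe2l2 at 20.4 and 21.2 CPM, and Nqo1 at 5.13 and 6.09 CPM. The change with HHT was also compared between genotypes. It was called for 0 of the 8 genes and 0% of all genes in each fraction, with 0 of the 8 and 214, 187 and 104 of all genes at an unadjusted p under 0.05 in input, medium and heavy, and by DESeq2 also for 0 of the 8. The Hmox1 difference in the heavy change, KO minus WT, was 0.38 ± 0.33 (95% interval -0.34 to 1.09), and that of Slc7a11 in medium polysomes was -0.71 ± 0.41 (-1.6 to 0.17, adjusted p = 0.999).

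Further gene lists of the pathway, also drawn up with results of these data known, give the setting. The all-gene values beside them mix genes with and without a hydrophobic segment in the protein, a feature defined below. Among genes matched to a coding sequence, the median heavy change was 0.68 with such a segment and -0.19 without one. The lists and cell type markers were not split by this feature, and its part was not tested. Of 30 other NRF2 targets, 27 had a row, and on heavy polysomes 16 fell with HHT and 4 rose, where 24.7% of all genes fell and 27.1% rose, with a median of -0.84 beside the all-gene median of 0.06. Cat, catalase, fell by 1.69 ± 0.14 on the log2 scale (adjusted p = 3.38e-06), from a mean of 164 CPM to 50.7 CPM. Sqstm1, the autophagy receptor p62 that also binds KEAP1, fell by 1.40 ± 0.12 (adjusted p = 3.94e-06), from 1553 to 587 CPM. G6pdx, the first enzyme of the NADPH-making pentose phosphate pathway, fell by 1.27 ± 0.13 (adjusted p = 6.89e-06), and the glutathione transferase Gsta4 by 1.63 ± 0.18 (adjusted p = 1.08e-05).

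In medium polysomes 11 of these 27 targets fell and 6 rose, where 21.5% of all genes fell and 25.4% rose, with a median of -0.11. The glutathione transferases Gstp1 (-1.24 ± 0.16, adjusted p = 0.000126) and Gstm5 (-1.35 ± 0.17, adjusted p = 0.000129) and the peroxiredoxin Prdx6 (-1.36 ± 0.19, adjusted p = 0.00017) fell. Ephx1, the microsomal epoxide hydrolase, rose (1.47 ± 0.21, adjusted p = 0.000184). In input, where 12.2% of all genes rose, 2 of the 27 rose and 0 fell, Ephx1 (1.50 ± 0.19, adjusted p = 0.00109) and the export pump Abcc1 (0.77 ± 0.19, adjusted p = 0.016), with a median of 0.09. Against input, 9 of the 27 were higher and 4 lower on heavy polysomes in vehicle (median 0.30), beside 24.8% and 21.7% of all genes. In HHT 1 was higher and 20 were lower (median -0.56), beside 27.6% and 30.4% of all genes.

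The 17 regulators and partners of NRF2, of which 17 had a row, had 6 that rose and 4 that fell on heavy polysomes, with a median of 0.02. These are shares near the 27.1% and 24.7% of all genes. Nfe2l1, the related factor NRF1 that is made at the endoplasmic reticulum, rose by 1.26 ± 0.14 (adjusted p = 1.21e-05), from a mean of 295 CPM to 706 CPM, opposite to Nfe2l2. The repressor Bach2 rose (0.78 ± 0.16, adjusted p = 0.00102). Dpp3, a peptidase that binds KEAP1, fell (-1.01 ± 0.14, adjusted p = 4.44e-05), as did Btrc, the ubiquitin ligase subunit that marks NRF2 independently of KEAP1 (-0.81 ± 0.12, adjusted p = 8.55e-05).

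In medium polysomes 5 of the 17 rose and 4 fell, near the 25.4% and 21.5% of all genes, with a median of 0.04. Pgam5, a mitochondrial phosphatase bound by KEAP1, fell (-0.84 ± 0.13, adjusted p = 0.000282), as did the small MAF gene Maff (-0.83 ± 0.16, adjusted p = 0.00109). Nfe2l1 (0.67 ± 0.13, adjusted p = 0.00139) and the co-activator Crebbp (0.64 ± 0.17, adjusted p = 0.00823) rose. In input 0 of the 17 were called, with a median of -0.15.

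Other antioxidant enzymes, 20 of 22 with a row, had 5 that fell and 0 that rose on heavy polysomes (median -0.08), where 24.7% of all genes fell, a like share, and 27.1% rose. Those that fell included the peroxiredoxin Prdx2 (-1.06 ± 0.13, adjusted p = 2.86e-05), the glutathione synthetase Gss (-1.07 ± 0.17, adjusted p = 0.000139) and the thioredoxin reductases Txnrd3 (-1.07 ± 0.21, adjusted p = 0.000752) and Txnrd2 (-0.99 ± 0.22, adjusted p = 0.00203). On medium polysomes 15 fell and 2 rose (median -0.70), beside 21.5% and 25.4% of all genes, with Prdx5 at -1.27 ± 0.15 (adjusted p = 9.52e-05), Prdx3 at -1.27 ± 0.17 (adjusted p = 0.000132), and the superoxide dismutases Sod2 at -0.79 ± 0.12 (adjusted p = 0.000256) and Sod1 at -1.05 ± 0.17 (adjusted p = 0.000316). In input 2 rose and 0 fell, the secreted Sod3 (1.46 ± 0.26, adjusted p = 0.00294) and the endoplasmic reticulum enzyme Prdx4 (1.39 ± 0.28, adjusted p = 0.0055). The difference between the pools or between the lists was not tested.

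Of 14 genes of heme breakdown and synthesis other than Hmox1, 13 had a row, and on heavy polysomes 7 fell and 1 rose (median -0.66), beside 24.7% and 27.1% of all genes. This list shares a gene with the other NRF2 targets, and its heavy fall is counted in both. Alas1, the rate-limiting enzyme of heme synthesis outside red cells, fell from a mean of 143 CPM to 65.9 CPM (-1.12 ± 0.12, adjusted p = 1.12e-05). Urod, a later enzyme of the same pathway, fell (-1.47 ± 0.18, adjusted p = 2.72e-05), as did Hmox2, the constitutive heme oxygenase (-0.85 ± 0.12, adjusted p = 5.68e-05). Pgrmc1, a membrane heme-binding protein, rose (1.28 ± 0.19, adjusted p = 7.54e-05). In medium polysomes 6 fell and 1 rose (median -0.39), beside 21.5% and 25.4% of all genes, and in input 1 rose, Pgrmc1 (1.17 ± 0.18, adjusted p = 0.00155), and 0 fell.

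**Figure D4:**
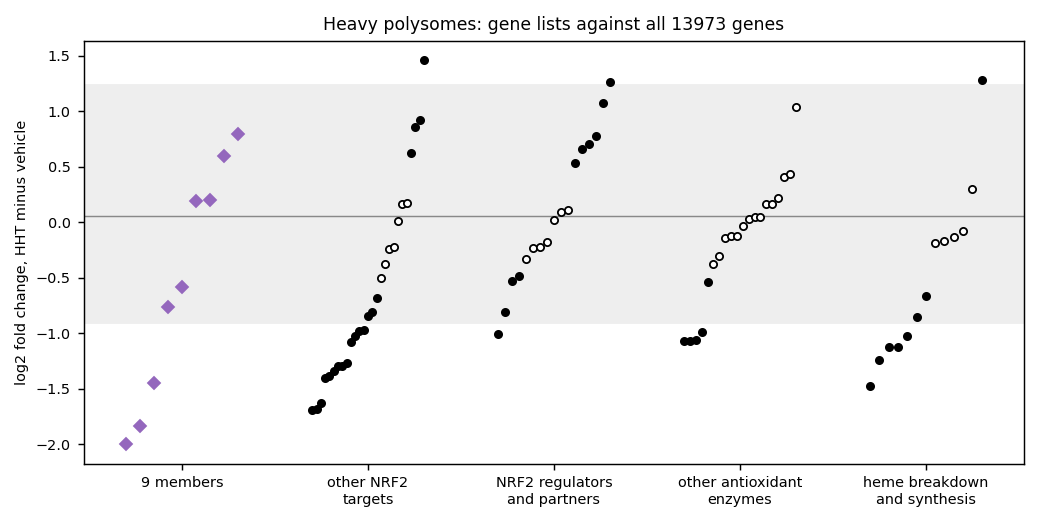
Log2 fold change with HHT in heavy polysomes (y axis) of each gene in 5 lists (x axis): diamonds are the 9 genes of the report, filled circles are list genes past an adjusted p of 0.05 and open circles those not past it. The grey line is the all-gene median of 0.06 and the grey band runs from the 10th to the 90th percentile of all genes; the median of the other NRF2 targets is -0.84.

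Markers of the cell types in a slice also moved with HHT, and their part in the results above was not tested. For comparison, 12.2% of all genes were called higher and 0.215% lower in input. In input 8 of 12 microglia markers rose and 0 fell (median 0.89), with a summed level of 208.9 to 257.5 CPM in HHT and 100.8 to 141.4 CPM in vehicle, where Hmox1 was 0.43 higher. Vessel markers rose in 7 of 12 (summed 94.27 to 110.6 against 39.51 to 45.68 CPM) and astrocyte markers in 4 of 12 (2604 to 3035 against 1941 to 2173 CPM), with 0 falling in either list. Of 8 markers of border macrophages, cells known to express Hmox1, 4 had a row (not Cd163, Pf4, Ms4a7 or Cbr2), and 1 rose in input. Neuronal markers rose in 2 of 10 in input, with 0 falling, and oligodendrocyte markers in 4 of 10, with 0 falling. On heavy polysomes 24.7% of all genes were called lower and 27.1% higher, and 4 of the 8 tested genes fell. There 7 of 10 neuronal markers fell and 2 rose (median -0.59). The summed neuronal levels were 10430 to 12160 CPM in HHT and 11760 to 12100 CPM in vehicle. Oligodendrocyte markers rose there in 6 of 10 and fell in 2 (median 0.92), with summed levels of 3944 to 4498 CPM against 3465 to 3504 CPM.

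On heavy polysomes, with Hmox1 4.01-fold lower, 24.7% of all genes called lower and 27.1% higher, 0 of 12 microglia markers were called. Their summed level was 68.69 to 103.7 CPM in HHT and 87 to 91.18 CPM in vehicle. Of the 4 border macrophage markers 1 fell, with sums of 8.355 to 11.72 CPM against 10.89 to 13.04 CPM. Among 12 astrocyte markers 6 rose and 5 fell on heavy polysomes, such as Slc1a2 (1.79 ± 0.24) and Aldoc (-2.33 ± 0.20). Summed astrocyte levels there were 2792 to 3878 CPM in HHT and 2931 to 3097 CPM in vehicle. Since markers of the same cell type moved both ways, these counts do not measure numbers of cells. On medium polysomes, where Slc7a11, an astrocyte-rich mRNA, rose 2.76-fold, 7 of 12 astrocyte markers rose and 3 fell. Other cell types had rises on medium polysomes too. Vessel markers rose in 8 of 12 and fell in 1, and oligodendrocyte markers rose in 6 of 10 and fell in 3. Neuronal markers rose in 5 of 10 and fell in 1, and microglia markers rose in 4 of 12 and fell in 1. Of 4 border macrophage markers 0 were called. Of all genes 25.4% were called higher and 21.5% lower on medium polysomes. The summed astrocyte levels were 3269 to 3651 CPM in HHT against 1669 to 2050 CPM in vehicle.

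Among the genes whose levels over the 18 libraries were most like those of Hmox1, by Pearson's r of log2 CPM among 11118 genes with a mean of at least 5 CPM, stood Msantd4 (0.966), Gem (0.960), Pa2g4 (0.959), Phyhipl (0.958), Napg (0.955), Cluap1 (0.954) and Sugt1 (0.953). Gem encodes a small GTPase, Napg a SNAP protein of vesicle fusion and Sugt1 a partner of HSP90. The least like were Slc25a51 (-0.948), 5031439G07Rik (-0.948), Tmcc1 (-0.944) and Lrrc58 (-0.944). Among the members the r was 0.822 for Nfe2l2, which ranked 454, 0.709 for Txnrd1, 0.702 for Nqo1 and 0.380 for Keap1, and it was -0.291 for Gclm, -0.405 for Slc7a11, -0.452 for Gclc and -0.623 for Srxn1. The libraries share lysates, treatment and fraction, and r is given as a description only.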

How the data were processed

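Polysome RNA-seq of 18 libraries was used. Per the submitters' processing notes, Trimmomatic 0.32, Bowtie2 2.1.0, RSEM 1.2.11, DESeq2 1.16.1 and mm10 were used, with no roles or order given. The deposited count table holds the authors' estimated counts (expected counts), none of whose 251514 values is whole within 1e-06. The other deposited table holds a score, TPM rescaled by the authors in a way not given in the sources used here. Both tables are equal up to 1 factor per gene and 1 per library.

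Counts were rounded and fitted with edgeR 4.0.16 (R 4.3.3): 12 group means over all 18 libraries, TMM scaling, quasi-likelihood test with 6 residual degrees of freedom, two-sided, Benjamini-Hochberg adjustment over the 13973 genes of each of 15 comparisons, called at 0.05. Log2 CPM for likeness used a prior count of 2. Input, medium and heavy of a numbered replicate share a lysate, per the labels' protocols. Across genes, deviations of the HHT replicates from their group means correlated at 0.349 (WT) and 0.211 (KO) between input and medium. Between input and heavy these deviations correlated at 0.0509 and 0.056. The main fit has no lysate block, and a block was an alternative. DESeq2 1.42.0 and limma 3.58.1 (on log2 of the score + 1) were other alternatives.

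The members and lists were chosen with earlier results of these data known. Named genes are the 9 members, up to 4 genes of each list by the smallest p in the comparison discussed, and the 8 most and 4 least like Hmox1, of which 1 is not reported here. Feature lengths came from GENCODE M21. A hydrophobic segment is a stretch where windows of 19 residues have a mean hydropathy of at least 1.6.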

Additional observations from a re-analysis of the deposited data

How the results depend on the processing

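Results are given here as numbers called of the 8 tested genes. HHT against vehicle in medium polysomes (main count 5) gave 3 with DESeq2, 2 with limma on the rescaled TPM, 3 in WT alone, 1 in KO alone and a range of 3 to 3 with each HHT replicate left out. Medium against input in HHT (main count 4) ranged from 0 to 3 over the replicates left out, and heavy against input in HHT (main count 3) from 1 to 2. Medium against input in vehicle (main count 3) gave 1 with limma, heavy against input in vehicle (main count 6) gave 3 with total counts, and the HHT shift of medium against input (main count 1) gave 2 with limma and 0 to 1 with replicates left out. No called value changed sign. Of 1458 alternative values in all, 1291 kept their direction and side of the threshold or stayed within the spread. Another 73 lost a call and 14 gained one. The other 80 either changed sign with no call in either fit or, where no adjusted p was used, moved by at least the SE. Why these differ was not tested. The Nqo1 shift had no adjusted p in DESeq2.

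With the replicate block in the 4 HHT libraries of a fraction, KO against WT called 0 of the 8 in each fraction, as without it. Across genes, the difference between the HHT replicates of WT correlated with that of KO at 0.323 in input, 0.165 in medium and 0.00332 in heavy. Each genotype has only 2 HHT replicates, and the labels do not say that a number marks a shared preparation. The replicate block of each lysate gave 5 of the 8 in the HHT shift of heavy against input in place of 4, through Keap1, and changed no other call. Total counts moved all-gene medians to -0.28 in heavy against input in HHT and 0.16 in the heavy shift. Runs with HHT replicate 1 or 2 alone were added after seeing the data. The single vehicle library of each genotype limits precision throughout.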

Other observations

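Length and membrane features were set beside the changes as a description over the 13040 genes matched to a coding sequence, which are not independent replicates. Coding length went with the place on the gradient, with Spearman's rho across genes of 0.60 against the heavy to input difference in vehicle and 0.64 in HHT, and 0.47 against the HHT change in medium polysomes, but -0.03 against the HHT change in heavy polysomes. Nqo1 and Gclm have the same coding length of 274 codons, and their heavy changes with HHT were -1.83 and 0.19. Nqo1 had few estimated counts, 8.37 to 37.9 in a library. Whole transcripts are 1553 bases for Nqo1 and 5589 for Gclm. Across genes, transcript length had a rho of 0.16 with the heavy change. The part of length in these changes was not tested.

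A hydrophobic segment was found in 36.1% of matched genes and in 4 of the 9: Slc7a11 with 11 segments, and Hmox1, Txnrd1 and Gclc with 1 each. The search is a window on hydropathy and does not show a membrane protein. Genes with a segment had median HHT changes of 0.39 in input, 0.51 in medium and 0.68 in heavy polysomes, and those without one -0.06, -0.15 and -0.19. Slc7a11, a carrier with many membrane spans, was higher with HHT in all 3 fractions, at 0.56, 1.46 and 0.79, although its input change missed the threshold. Hmox1, whose protein is held in the membrane by its tail, was at -2.00 on heavy polysomes. Detergent was added to these lysates only after spins at 2000 g and 10000 g, and the part of that step in these differences was not tested.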
